A study of Mus musculus with 12 samples.

Results

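Neuropeptides of the mouse hippocampus were followed through the transcripts of 10 precursor genes, Npy, Sst, Vip, Cck, Penk, Pdyn, Tac1, Crh, Cort and Nts. The genes were taken by name as known precursors, and all 10 were among the 55573 genes of the count table. Polyadenylated RNA from the whole right hippocampus was sequenced in 12 C57BL/6J mice aged 4.5 months, 1 library per animal, to ask how gene expression differs between APP/PS1 and wild-type (WT) mice of each sex. Each sex was represented by 4 APP/PS1 and 2 WT animals. APP/PS1 mice carried APPSwe, whose amyloid precursor protein joins mouse and human sequence and has familial Alzheimer's disease mutations, and PS1dE9, which encodes human presenilin 1 shortened by an exon. Part of the prion gene promoter drove each, and the WT mice carried neither. Total counts per library ran from 36714316 to 50643565.

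Neuropeptides are made as long precursors, cut and modified in the secretory pathway, stored in dense-core vesicles and released during sustained firing to act on G-protein-coupled receptors. In the hippocampus NPY, somatostatin, VIP and cholecystokinin are classical products of GABAergic interneurons, while enkephalin and dynorphin are the endogenous opioids of the region and dynorphin is made by dentate granule cells. Because whole tissue was sequenced, fewer cells of a type and less RNA per cell cannot be told apart for any transcript described here.

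The libraries were first compared with their labels and with markers of neighbouring tissue. Thy1, taken because it was already known to differ strongly between these genotype labels, lay between 2173 and 3311 normalized CPM (counts scaled to a common library size with upper-quartile factors) in the 8 APP/PS1 animals and between 726 and 747 in the 4 WT animals, which checks only that columns and genotype labels were matched as before. By sex-linked genes, 0 of the 12 libraries did not match the sex of their group. A list of 10 choroid plexus genes summed to 3962 normalized CPM in APP/PS1 female 1, 4141 in WT female 2 and 7041 in APP/PS1 male 2, but to between 27.9 and 46.5 in the other 9 libraries. Ttr, which encodes the transthyretin secreted by the choroid plexus, was the most abundant of the 10 per length. It reached 3530, 3647 and 6362 normalized CPM in these 3 libraries. Kcne2 was at 0 in APP/PS1 female 2 and WT male 1. These 3 libraries held more choroid plexus RNA than the rest and were spread over 3 of the 4 groups. Lists of striatal and septal genes (201 to 289 normalized CPM in sum, most abundant gene per length Ppp1r1b) and of thalamic and habenular genes (65.7 to 84.5, most abundant per length Slc17a6) varied far less. The highest striatal and septal sums, 289 and 281, were those of WT female 2 and APP/PS1 male 2. Hippocampal principal neuron genes summed to between 1124 and 1344 in all 12 libraries.

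Per length, Sst and Cck stood far above the other precursors. The median level over the 12 libraries, in FPKM (the same normalized CPM per 1000 exon bases), was 264 for Sst and 219 for Cck. Npy followed at 47.9 FPKM and Penk at 15.1 FPKM. Nts, the neurotensin precursor, was at 8.07 FPKM, Vip at 7.52, Cort at 5.84, Pdyn at 4.66, Tac1 at 2.31 and Crh at 1.68. Of the tested genes, 99.5% had a median level at or below that of Sst, but only 19.7% at or below that of Crh. Several neighbours in this order could not be separated. The ranges over the 12 libraries overlapped between Sst and Cck, between each pair of neighbours from Penk down to Pdyn, and between Tac1 and Crh, while Cck lay wholly above Npy, Npy above Penk, and Pdyn above Tac1. The plot of levels per length shows these ranges. Raw counts per library ran from 9650 to 15799 for Cck and from 52 to 148 for Crh, so that counting error alone was 0.922% of the mean count for Cck and 10.2% for Crh.

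**Figure D1:**
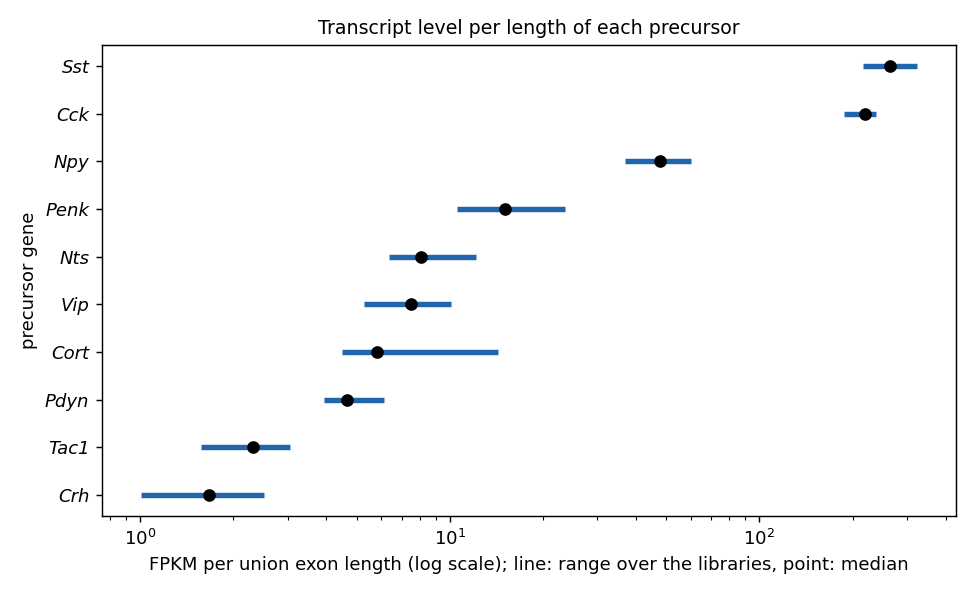
Level per length of each precursor on a log axis of FPKM, with the range over the 12 libraries as a line and the median as a point. Sst (median 264 FPKM) and Cck (219 FPKM) overlap each other and lie above Npy (47.9 FPKM), and Crh (1.68 FPKM) is at the bottom.

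Averaged over both sexes, none of the precursors was called between APP/PS1 and WT mice. All 10 passed the filter on low counts and were tested, and edgeR's quasi-likelihood test called 0 of 10 at a false discovery rate (FDR) of 0.1, against 258 of all 14008 genes tested (1.84%). At an unadjusted p under 0.05 the count was also 0 of 10, beside 1325 of all tested genes (9.46%), and the likelihood ratio test and DESeq2 likewise called 0 of 10. Of the 10 log2 fold changes, 5 were below 0, and their median was -0.02, beside 0.01 over all tested genes. The smallest adjusted p among the 10 was 0.693, that of Sst. For Cck the 95% confidence interval of the log2 fold change ran from -0.18 to 0.04, and for Npy from -0.09 to 0.16. That of Penk was wider on both sides (-0.44 to 0.46), that of Crh mostly on the lower side (-0.70 to 0.18) and that of Cort mostly on the upper (-0.35 to 0.74).

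**Figure D2:**
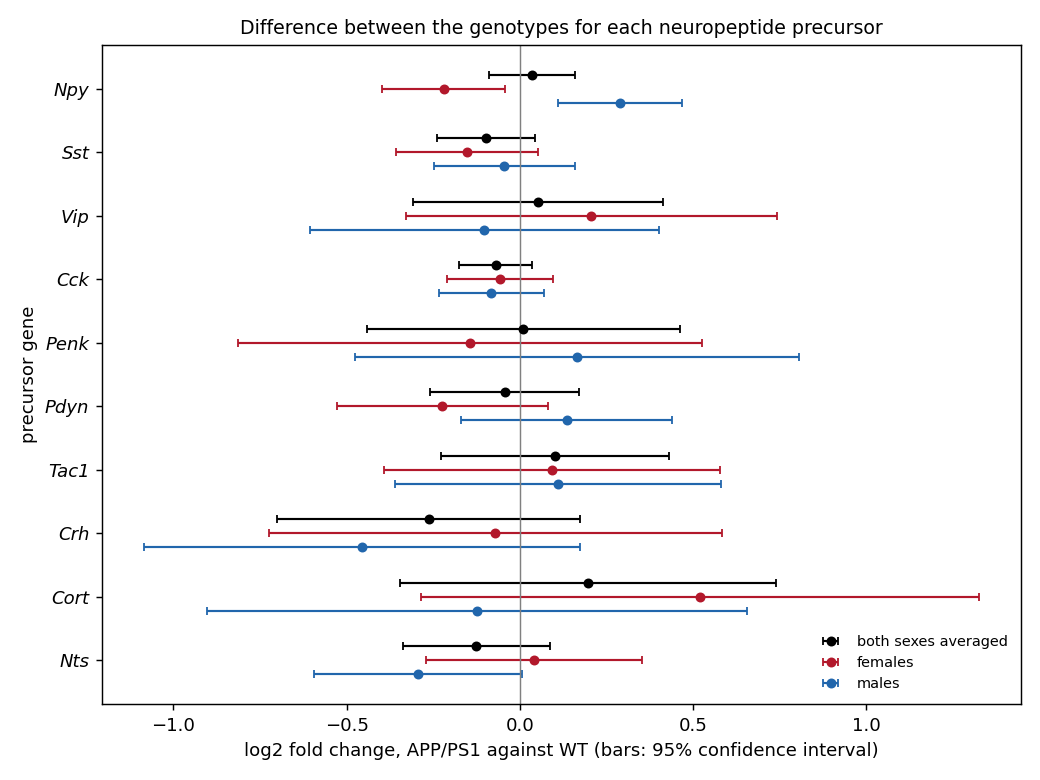
Log2 fold change of each precursor in APP/PS1 against WT mice, for both sexes averaged (black), females (red) and males (blue), with 95% confidence intervals as bars. Every interval of the averaged comparison includes 0, and the female and male intervals of Npy (-0.40 to -0.04 and 0.11 to 0.47) lie on opposite sides of 0.

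Within each sex the count was again 0 of 10, beside 105 genes called in females (0.75% of those tested) and 22 in males (0.157%). In each sex 1 of 10 precursors had an unadjusted p under 0.05, which was Npy both times, beside 9.52% of all tested genes in females and 5.14% in males, and the likelihood ratio test and DESeq2 also called 0 of 10. For the interaction of genotype and sex, the same edgeR test called 0 of 10 precursors and 0 of 14008 genes (0%), with 1 precursor and 500 genes at an unadjusted p under 0.05. DESeq2 called 0 genes and the likelihood ratio test 2 for the interaction, with no precursor among them. No precursor separated all 8 APP/PS1 animals from all 4 WT animals in normalized CPM, which 203 of the tested genes did (1.45%). The 2 WT animals of a sex lay outside the range of its 4 APP/PS1 animals for 1 precursor in females (Npy), beside 19.2% of all tested genes, and for 2 precursors in males (Npy and Crh), beside 10.8%.

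**Figure D3:**
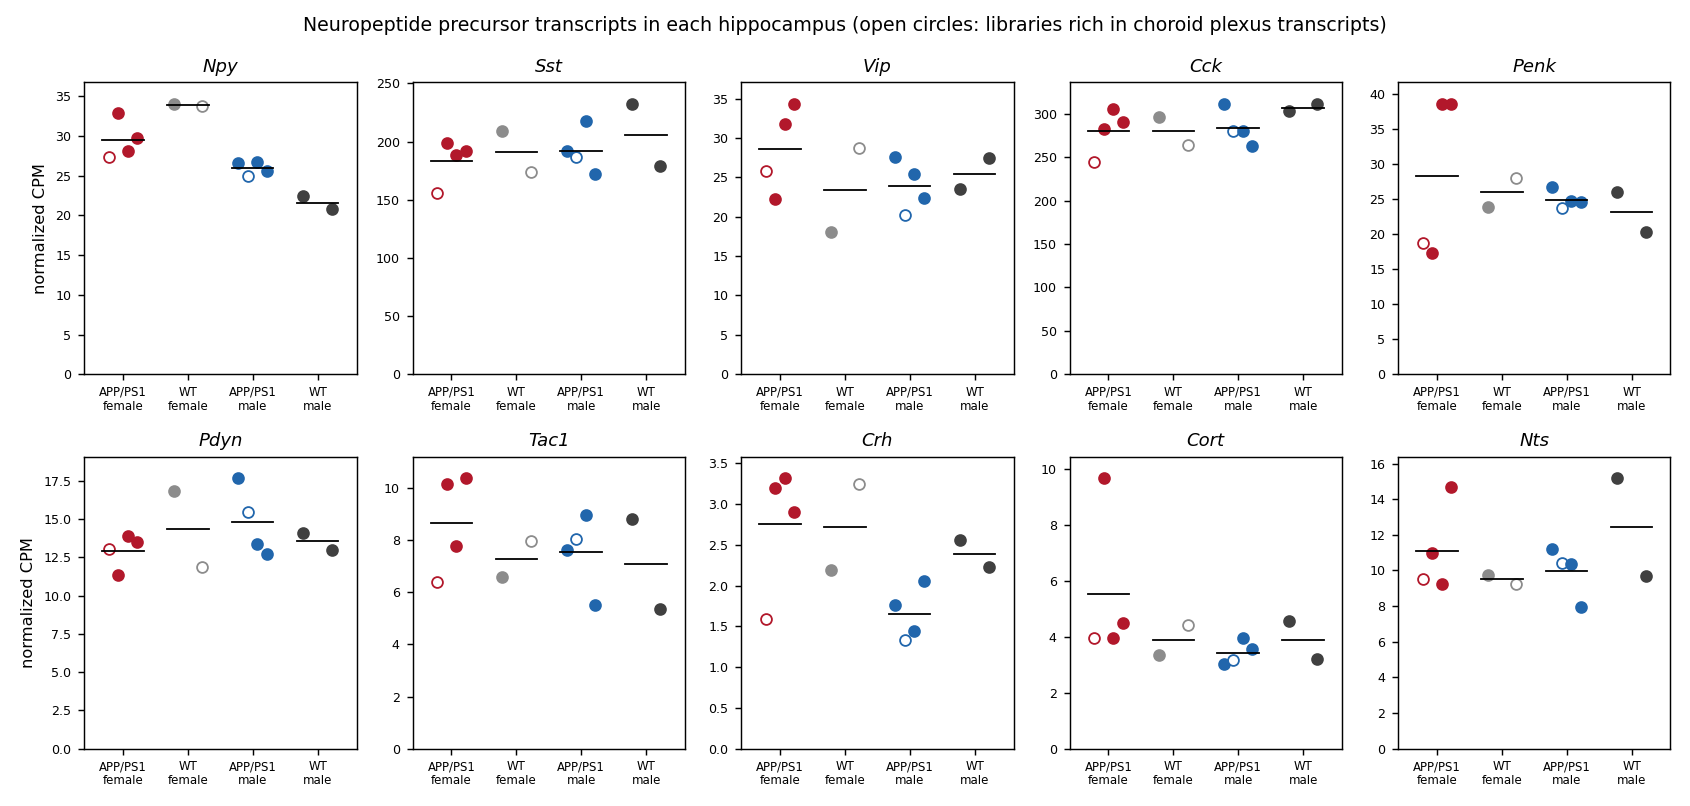
Normalized CPM of each precursor in every animal, by group, with group means as horizontal lines and open circles for the 3 libraries rich in choroid plexus transcripts; each vertical axis starts at 0. The groups overlap in most panels; in that of Npy the WT females (33.8 and 34.1) are highest and the WT males (20.8 and 22.4) lowest.

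Npy (ENSMUSG00000029819, chromosome 6, 49822710 to 49829507, plus strand) encodes neuropeptide Y, which is released by several interneuron classes and dampens glutamate release. Its level was 27.4, 32.9, 28.1 and 29.8 normalized CPM in APP/PS1 females 1 to 4, and 34.1 and 33.8 in WT females 1 and 2. Every APP/PS1 female was below both WT females. In males it was 26.6, 25.0, 26.8 and 25.6 normalized CPM in APP/PS1 animals 1 to 4, and 22.4 and 20.8 in WT animals 1 and 2. Here the order was the opposite, with every APP/PS1 male above both WT males. The log2 fold change was -0.22 in females (95% interval -0.40 to -0.04) and 0.29 in males (0.11 to 0.47), with adjusted p of 0.396 and 0.453 by edgeR's quasi-likelihood test, neither of which passed the threshold. The female minus male difference of these log2 fold changes was -0.51, with an unadjusted p of 0.000875 and an adjusted p of 0.998 over all genes tested, so it was not called. Over the 24 alternative settings the difference stayed between -0.57 and -0.45, and its adjusted p lay between 0.317 and 1. Opposite separations of this kind in the 2 sexes were seen for 1 of 10 precursors and for 51 of all tested genes (0.364%). The averaged log2 fold change of 0.04 lies between those of the sexes.

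Npy was also compared between the sexes. Each female was above each male of the same genotype. Females and males without overlap in both genotypes, in the same direction whether higher or lower, were seen for 57 of the tested genes (0.407%) and for no other precursor. Mean levels were 33.9 ± 0.184 (SD, n = 2) normalized CPM in WT females and 21.6 ± 1.12 (SD, n = 2) in WT males, and 29.5 ± 2.45 (SD, n = 4) and 26.0 ± 0.864 (SD, n = 4) in APP/PS1 females and males. Between WT females and WT males the log2 fold change was 0.69 (95% interval 0.48 to 0.91), and Npy was the only precursor called there (edgeR's quasi-likelihood test, adjusted p = 0.0217), among 7 genes in all (0.05%). Between APP/PS1 females and males it was 0.18 (0.04 to 0.32), with 0 of 10 precursors and 12 of 14008 genes called (0.0857%). At an unadjusted p under 0.05 there were 2 precursors in that comparison, Npy and Crh, beside 745 of all tested genes (5.32%), and DESeq2 and the likelihood ratio test called 0 of 10. The call of Npy between the WT sexes rested on 2 animals a side. It was lost without WT female 1 (adjusted p = 0.257), without WT male 2 (0.396), without the 3 choroid plexus-rich libraries (0.135) and with replicate number as a block (0.164), while the log2 fold change stayed between 0.63 and 0.75 in all 24 alternatives. In fits without 1 of these animals the lone WT animal of its sex was assumed to vary like the other groups.

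The start of Npy is shown because this gene carried the opposing pattern of the sexes. The 250 bases before the RefSeq start of Npy (GRCm38.p6, chr6:49822460-49822709, plus strand) are given 5′ to 3′ in lower case, since neither of the motifs described next was found in them.
Npy upstream: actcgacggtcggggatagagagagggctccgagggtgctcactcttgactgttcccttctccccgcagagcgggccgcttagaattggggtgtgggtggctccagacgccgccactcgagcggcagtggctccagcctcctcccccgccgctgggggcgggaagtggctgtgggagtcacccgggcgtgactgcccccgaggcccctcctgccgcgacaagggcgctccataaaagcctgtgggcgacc

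Several of these precursor genes are textbook targets of cAMP signalling through CREB, and the sequences before their starts were searched for its palindromic motif TGACGTCA and for the 5-base core TGACG on either strand (CGTCA on the other), which the palindrome contains in both directions. RefSeq promoters were given for 8 of the 10 genes, and Penk and Crh had no entry. In the 250 bases before the start, the palindrome was found in 1 of 8 genes, Sst, and in 1.77% of all 27025 genes of the table (1.55% of its 32851 promoters). The 5-base core was found in 6 of 8 genes (Sst, Cort, Vip, Cck, Tac1 and Nts), and in 19.8% of all genes (17.8% of promoters). Pdyn had 2 promoters, neither with a match. RefSeq starts of Sst, Pdyn, Tac1 and Nts differ from the GENCODE gene ends given with these genes. Each match is given below with up to 11 bases on either side, 5′ to 3′ along the gene (GRCm38.p6), with the match in capitals. A match describes letters only and is not evidence of binding.
Sst window, chr16:23890874-23890903, minus strand: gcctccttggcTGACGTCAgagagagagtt
Cort window, chr4:149126766-149126792, minus strand: tccggcttgtgCGTCAccgcgtgagtg
Vip window, chr10:5639128-5639154, plus strand: gatcactactgTGACGtctttcgggga
Cck window, chr9:121495726-121495752, minus strand: ctgctggactgCGTCAgcactgggtaa
Tac1 window, chr6:7554853-7554879, plus strand: ccctaaaattgCGTCAtttcgaacaca
Tac1 window, chr6:7555007-7555033, plus strand: ctctacaggctCGTCAcgcctgagata
Nts window, chr10:102490569-102490595, minus strand: ttagggaagatCGTCActttccatcaa

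Sst (ENSMUSG00000004366, chromosome 16, 23889573 to 23890958, minus strand) encodes somatostatin, the marker peptide of dendrite-targeting interneurons. Its level was 156, 199, 188 and 192 normalized CPM in APP/PS1 females 1 to 4 and 209 and 174 in WT females 1 and 2. In APP/PS1 males 1 to 4 it was 192, 186, 218 and 172 normalized CPM, and in WT males 1 and 2 it was 232 and 179. The genotypes overlapped in either sex, and the lowest value of all was in APP/PS1 female 1, a choroid plexus-rich library. The averaged log2 fold change was -0.10 (95% interval -0.24 to 0.04). Cort (ENSMUSG00000028971, chromosome 4, 149125034 to 149126763, minus strand) encodes cortistatin, a relative of somatostatin that binds the same receptors. Its level was 3.95, 9.66, 3.96 and 4.49 normalized CPM in APP/PS1 females 1 to 4 and 3.36 and 4.41 in WT females 1 and 2. In APP/PS1 males 1 to 4 it was 3.03, 3.17, 3.96 and 3.56, and in WT males 1 and 2 it was 4.56 and 3.19. APP/PS1 female 2 stood alone, with 363 raw counts, while the groups otherwise overlapped. The female log2 fold change was 0.52 (-0.29 to 1.33), which was not called, and without that animal it was 0.04.

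Vip (ENSMUSG00000019772, chromosome 10, 5639218 to 5647617, plus strand) encodes vasoactive intestinal peptide, made by interneurons that mostly contact other interneurons. Its level was 25.8, 22.3, 31.8 and 34.3 normalized CPM in APP/PS1 females 1 to 4 and 18.0 and 28.7 in WT females 1 and 2. The males lay between 20.2 and 27.5 whatever their genotype. The groups overlapped in both sexes, and the averaged log2 fold change was 0.05 (-0.31 to 0.41). Cck (ENSMUSG00000032532, chromosome 9, 121489824 to 121495694, minus strand), the cholecystokinin precursor of basket interneurons and of some pyramidal cells, had the smallest ratio of highest to lowest library. It lay between 244 and 305 normalized CPM in APP/PS1 females, with WT females at 296 and 264, and between 263 and 311 in APP/PS1 males, with WT males at 303 and 311. The highest library was 1.27 times the lowest, and the averaged log2 fold change was -0.07.

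Of the opioid precursors, Penk (ENSMUSG00000045573, chromosome 4, 4133531 to 4138819, minus strand) encodes the enkephalins. Its level was 18.7, 17.3, 38.6 and 38.6 normalized CPM in APP/PS1 females 1 to 4 and 23.9 and 28 in WT females 1 and 2. APP/PS1 females thus fell into a low and a high pair, with both WT females in between. In APP/PS1 males 1 to 4 it was 26.7, 23.7, 24.8 and 24.6, and in WT males 1 and 2 it was 26.0 and 20.4. Males of both genotypes lay within the gap between the female pairs. The averaged log2 fold change of Penk was 0.01, with an interval of -0.44 to 0.46. Penk overlaps 1 annotated antisense gene, A830012C17Rik, and since the strand setting of the counting is not given in the sources used here, its counts are uncertain to that extent. Pdyn (ENSMUSG00000027400, chromosome 2, 129686565 to 129699844, minus strand), the prodynorphin gene of dentate granule cells, lay between 11.3 and 17.7 normalized CPM in all 12 libraries, with an averaged log2 fold change of -0.04 (-0.26 to 0.17). Its log2 fold change was -0.22 (-0.53 to 0.08) in females and 0.14 (-0.17 to 0.44) in males, neither of them called. The female value was 0.08 without WT female 1, -0.45 without WT female 2 and -0.50 without the 3 choroid plexus-rich libraries. The medians of the hippocampal principal neuron list, -0.19 in females and 0.07 in males, had the same signs as Pdyn in the main fit. Whether they were related was not tested.

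The remaining precursors are Crh, Tac1 and Nts. Crh (ENSMUSG00000049796, chromosome 3, 19693401 to 19695396, minus strand) encodes corticotropin-releasing hormone, a stress peptide that hippocampal interneurons also make. Its level was 1.6, 3.20, 3.32 and 2.90 normalized CPM in APP/PS1 females 1 to 4 and 2.20 and 3.25 in WT females 1 and 2. In males it was 1.77, 1.33, 1.45 and 2.06 in APP/PS1 animals 1 to 4 and 2.55 and 2.23 in WT animals 1 and 2. Both WT males were above all 4 APP/PS1 males, whereas the female groups overlapped. The log2 fold change was -0.46 (-1.09 to 0.17) in males and -0.07 (-0.73 to 0.58) in females, and neither was called. The female value lay between -0.69 and 0.42 with 1 animal left out, and it changed sign in 5 of 24 alternatives. Female group means were 2.75 normalized CPM in APP/PS1 and 2.72 in WT animals. Tac1 (ENSMUSG00000061762, chromosome 6, 7554879 to 7565834, plus strand), the precursor of substance P and neurokinin A, ranged from 5.36 to 10.4 normalized CPM with overlapping groups and an averaged log2 fold change of 0.10 (-0.23 to 0.43). Nts (ENSMUSG00000019890, chromosome 10, 102481756 to 102490486, minus strand) ranged from 7.97 to 15.2. In males its log2 fold change was -0.29 (-0.59 to 0.01), but WT males 1 and 2, at 15.2 and 9.69 normalized CPM, themselves lay on either side of 3 of the 4 APP/PS1 males. This male value of Nts lay between -0.54 and -3e-04 with 1 animal left out.

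Animals of the same group differed widely in most precursors. The pooled within-group coefficient of variation was 33.6% for Cort, 26.9% for Penk, 23.8% for Crh and 22.3% for Tac1. The first place of Cort leaned on 1 animal, APP/PS1 female 2, at 9.66 normalized CPM against 3.95 to 4.49 in the other APP/PS1 females. The SD of Cort was 2.78 in that group and between 0.419 and 0.964 in the other groups. Its pooled value without that animal is not given here. The coefficient was 19.7% for Nts, 18.8% for Vip, 13.9% for Pdyn and 11.8% for Sst. Only Cck (7.68%) and Npy (5.76%) were below the median of all tested genes, 9.24%, and 8 of 10 were above it. Precursors with few counts, and so a large counting error, tended to be among the more variable, but not all followed this. Penk, Vip and Npy had mean counts of 1063, 1058 and 1135 and thus nearly the same counting error, 3.07%, 3.08% and 2.97%, yet spreads of 26.9%, 18.8% and 5.76%.

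Some precursors rose and dipped together from animal to animal. After the group means were subtracted from log2(normalized CPM + 1), Npy and Cort had a Pearson r of 0.861 (Spearman rho 0.776) over the 12 libraries, and Tac1 and Nts one of 0.827 (rho 0.769). Sst and Tac1 reached 0.757, and Vip and Penk 0.667. Of the 45 pairs, 10 exceeded 0.5, 1 was below -0.5 (Cort and Pdyn, -0.558), and the median was 0.30. The points share library preparation, scaling and group means, and r is given as a description without a test. Without the 2 libraries farthest from the median of Npy, r of Npy and Cort dropped to 0.597, so it rested in part on those animals, whereas r of Tac1 and Nts was 0.775 without the 2 farthest from the median of Tac1. Over the 9 libraries low in choroid plexus transcripts, these r were 0.896 and 0.843, but that of Sst and Cck dropped from 0.548 to 0.188. There 8 pairs exceeded 0.5 and 4 were below -0.5, with Penk and Cort the lowest at -0.707, and the median was 0.142. In all of these subsets the group means subtracted were those of all 12 libraries, so the libraries left out still shaped the values.

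**Figure D4:**
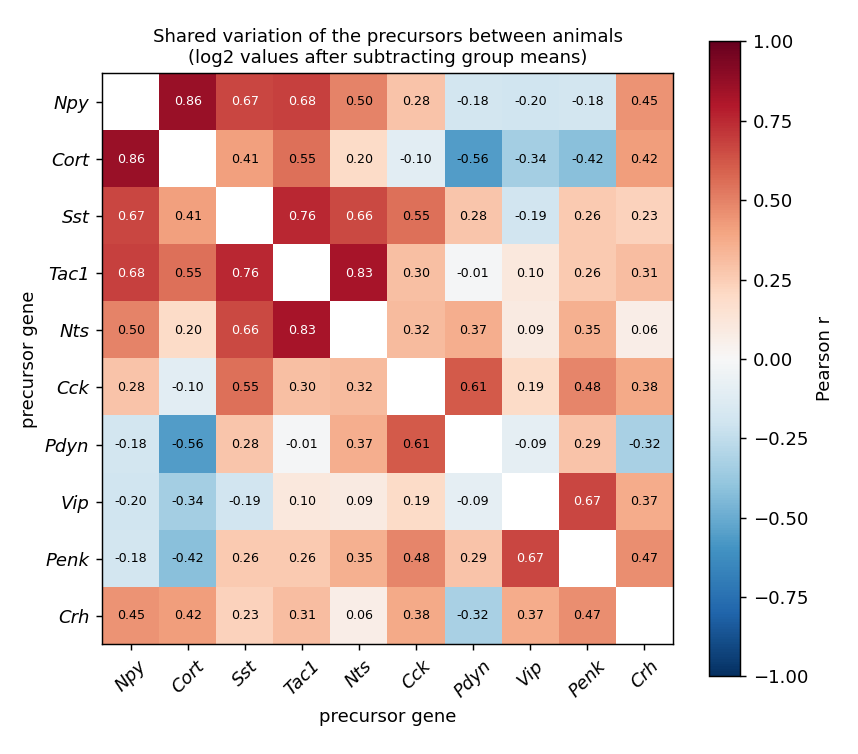
Pearson r between the precursors over the 12 libraries, from log2(normalized CPM + 1) with group means subtracted; red is positive, blue negative, and the diagonal is blank. Npy and Cort (0.86) and Tac1 and Nts (0.83) are the most alike, and Cort and Pdyn (-0.56) the least.

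Outside the 10 precursors, the tested genes most like each of them over the 12 libraries, by the same r, were as follows. Npy was most like C530005A16Rik (0.945) and Hnrnpd (0.924), and Sst was most like Prpf18 (0.951) and Chrna7 (0.945), the latter a nicotinic receptor subunit present in hippocampal interneurons. Vip was most like Stmn2 (0.941) and 4931414P19Rik (0.938), and Cck most like C1qbp (0.959) and Abhd17a (0.951). For Penk they were Klk8 (0.948), a secreted protease of hippocampal neurons, and 2310002F09Rik (0.943), and for Pdyn Peli2 (0.936) and Rab11fip2 (0.921). Crh was most like Ier5 (0.951), an immediate early gene, and Vgf (0.938), itself a peptide precursor of dense-core vesicles. Tac1 had Vps50 and Btbd10 (both 0.968), Nts had Fyttd1 (0.968) and Mob4 (0.95), and Cort had Asns (0.907) and Wdfy1 (0.904). As these are the highest of 14008 values each, such r arise readily with 12 libraries.

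Genes for the receptors and the processing of these peptides were compared between the genotypes next. Of 22 genes for receptors of the 10 peptides, 19 were tested, 8 were higher and 11 lower, with a median log2 fold change of -0.04 beside 0.01 over all tested genes. edgeR's quasi-likelihood test called none, with 1 at an unadjusted p under 0.05. For this and the lists below, the share of all tested genes under 0.05 with that test was 9.46%. DESeq2 and the likelihood ratio test called 0 as well, with 1 and 0 receptor genes under 0.05. The most abundant receptor per length was Sort1, the neurotensin-binding sortilin, at a median of 99.0 FPKM. It lay between 677 and 780 normalized CPM in APP/PS1 animals and between 735 and 828 in WT animals. Sort1 was the gene under 0.05 with the quasi-likelihood test (log2 fold change -0.10, 95% interval -0.18 to -0.01). The NPY receptor genes Npy1r, Npy2r and Npy5r had log2 fold changes of 0.11, 0.12 and 0.15, none called. In the same order they were 0.10, -0.01 and 0.15 in females and 0.12, 0.25 and 0.14 in males, again none called. Of 12 genes for peptide processing and dense-core vesicles, all were tested and 9 were lower, with a median of -0.04. None was called by edgeR's quasi-likelihood test, DESeq2 or the likelihood ratio test, and 2 had an unadjusted p under 0.05 with the first, Scg2 (-0.13) and Cadps2 (-0.15). The list was led by Cpe, the carboxypeptidase that trims most of these peptides, at 975 FPKM.

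Other neuropeptide genes were mostly too low to test. Of 17, 5 passed the filter (Tac2, Adcyap1, Pnoc, Grp and Vgf), and all 5 log2 fold changes were below 0, with a median of -0.24. edgeR's quasi-likelihood test called 0 and none had an unadjusted p under 0.05, while DESeq2 also called 0 with 3 under 0.05 and the likelihood ratio test 0 with 1. The lowest was that of Adcyap1, the PACAP precursor, at -0.33 (95% interval -0.69 to 0.04). Its male groups did not overlap, with 5.57 to 7.85 normalized CPM in APP/PS1 and 10.9 and 11.4 in WT animals, but its female groups did. Vgf separated in males as well (151 to 174 against 195 and 204), as did 10.8% of all tested genes. Vgf, the most abundant of the list, had a log2 fold change of -0.27 (-0.54 to 0.00).

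Interneuron genes, of the cells known to make several of these peptides, were compared as well. Of 18 such genes 17 were tested, 13 had log2 fold changes below 0, and the median was -0.09, with -0.12 in females and -0.01 in males. Whether the list as a whole differed was not tested. Hippocampal principal neuron genes had a median of -0.09 as well, with -0.19 in females and 0.07 in males. Kit, a receptor tyrosine kinase of neurogliaform and other interneurons, was the only one called. It was between 81.6 and 108 normalized CPM in the 8 APP/PS1 animals and between 101 and 130 in the 4 WT animals, so that the genotypes overlapped in part. Its log2 fold change was -0.24 (95% interval -0.35 to -0.13, adjusted p = 0.0362 by edgeR's quasi-likelihood test). The call was lost without WT female 1 (-0.20, adjusted p = 0.173) or WT male 2 (-0.17, 0.176), with no RUV factors or 1, with Ttr as the covariate, and with a replicate block. Gad1, which encodes the GABA-synthesizing enzyme and was the most abundant per length at 47.9 FPKM, had a log2 fold change of -0.12 (-0.21 to -0.03) and was not called. Summed, the 18 genes lay between 1439 and 1662 normalized CPM in APP/PS1 animals and between 1568 and 1663 in WT animals. The choroid plexus-rich libraries set the low ends, with 1439 in APP/PS1 male 2, 1472 in APP/PS1 female 1 and 1568 in WT female 2. In females the groups did not overlap, with 1472 to 1544 in APP/PS1 and 1568 and 1609 in WT animals, whereas in males they did. Of all tested genes taken singly, 19.2% separated the female genotypes in this way, a share that does not apply directly to a sum.

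**Figure D5:**
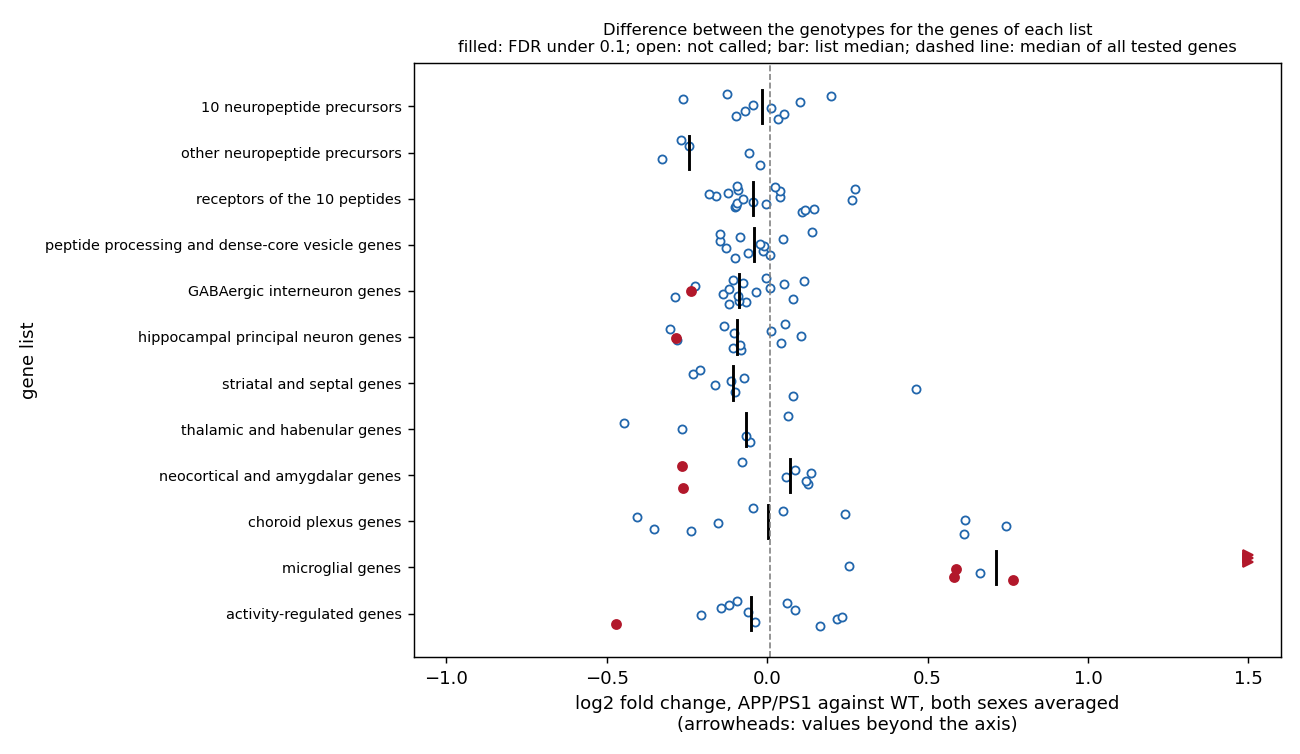
Log2 fold change of every tested gene of each list in APP/PS1 against WT mice, both sexes averaged, with list medians as bars and the median of all tested genes as a dashed line. The 10 precursors and their receptors lie around 0 (medians -0.02 and -0.04), and the microglial genes lie to the right (median 0.71).

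Lists for other cells and regions of the block of tissue were examined in the same comparison. Of the 12 hippocampal principal neuron genes, 1 was called, Spink8, a marker of CA1 pyramidal cells (-0.29, adjusted p = 0.0771 by edgeR's quasi-likelihood test), and the median of the list was -0.09. DESeq2 and the likelihood ratio test each called 2, Spink8 and Fibcd1. Neurod6 was the most abundant of them at 89.2 FPKM. Among 8 tested neocortical and amygdalar genes of 9, led by Rprm at 19.7 FPKM, Fezf2 (-0.26, adjusted p = 0.0354) and Etv1 (-0.26, 0.0204), markers of deep-layer projection neurons, were called lower, while 5 of the 8 were above 0 and the median was 0.07. Tbr1, another deep-layer gene, had a log2 fold change of 0.14 (95% interval 0.01 to 0.26) and was not called. Etv1 lay between 135 and 202 normalized CPM in these hippocampi, and which region its transcripts came from was not tested. None of 8 tested striatal and septal genes of 10 (median -0.11) or 5 tested thalamic and habenular genes of 6 (median -0.06) was called by edgeR's quasi-likelihood test, DESeq2 or the likelihood ratio test, and 1 of each list had an unadjusted p under 0.05 by each. Of the 12 activity-regulated genes, led by Arc at 36.5 FPKM, Fosb was called lower (-0.47, adjusted p = 0.0600) and the median was -0.05. Of the 10 choroid plexus genes edgeR's quasi-likelihood test called 0, with 2 at an unadjusted p under 0.05, while DESeq2 and the likelihood ratio test called 1 lower (Kl). In females alone the quasi-likelihood test also called Kl lower (-0.42, adjusted p = 0.0960). Of 8 microglial genes, 6 were called higher and all 8 were above 0, with a median of 0.71, Csf1r being the most abundant at 18.4 FPKM. In sum the microglial list lay between 261 and 388 normalized CPM in APP/PS1 animals and between 173 and 208 in WT animals, with no overlap between the genotypes. Of all tested genes taken singly, 1.45% had no such overlap, which is likewise not a share for sums. DESeq2 and the likelihood ratio test called 7 of the 8, Cx3cr1 being the gene added. Of the 6 calls 2, those of Itgax and Cst7, held in all 24 alternatives, and the other 4 were lost in 3 to 12 of them, with log2 fold changes above 0 in each. The call of Etv1 was lost without WT female 1 (adjusted p = 0.132) and with a replicate block (0.115), with log2 fold changes between -0.31 and -0.20 over the alternatives. That of Fezf2 was lost without WT female 2 (0.115), APP/PS1 male 2 (0.123) or WT male 2 (0.161), with no RUV factors (0.225), with Ttr as the covariate (0.116) and without the 3 choroid plexus-rich libraries (0.166), with log2 fold changes between -0.31 and -0.22. Those of Fosb and Spink8 were lost without 7 and 9 of the 12 animals left out in turn, and each in 4 further alternatives (no RUV factors or 1, Ttr as the covariate, replicate block). For Fosb the log2 fold changes lay between -0.60 and -0.36 over the alternatives, and the highest adjusted p was 0.352, without APP/PS1 male 2. For Spink8 it was 0.859, with no RUV factors, and the log2 fold change shrank to -0.17 with Ttr as the covariate, while the highest with 1 animal left out was 0.386, without WT female 1.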

How the data were processed

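For the deposited counts the authors used Trimmomatic (trimming), STAR (alignment, GRCm38) and HTSeq (counting per gene). Versions, annotation release and strand setting are not given in the sources used here. These raw counts per Ensembl gene came as 1 column per animal, and all columns were used. The filter asked for log2 CPM values of 1 or more in 3 or more libraries and kept 14008 genes. Upper-quartile factors, 2 RUV factors (unwanted variation, re-implemented by singular value decomposition of genes other than the 5000 with the smallest p in a first fit) and the 4 groups entered edgeR 4.0.16 (R 4.3.3) with robust quasi-likelihood tests and Benjamini-Hochberg adjustment over all genes tested; differences with an FDR under 0.1 were called. Intervals use the test's t distribution. Tested on simulated data for the averaged comparison (13874 genes), the fit called 50 of 67 genes changed 1.5-fold and 60 of 68 changed 2-fold. It called 63 of 63 changed 3-fold, and 18 of its 191 calls were of unchanged genes. The simulated counts were drawn independently for each gene, with no differences between groups other than these folds. They held no variation shared between genes, such as that of the choroid plexus, so recovery in the real data may differ. Chi-square per degree of freedom was between 11.6 and 52.0 in the 14 pairs of libraries within groups, so none of these pairs was a copy; pairs between groups were not compared in this way. Positions and exon lengths came from GENCODE M21, which held 55480 of the 55573 genes; promoters came from RefSeq (GRCm38.p6). Alternatives were DESeq2 1.42.0, the likelihood ratio test, other scaling, filters, RUV factors and thresholds, a replicate block and left-out animals. Genes were named by rule: the 10 precursors, the called and the most abundant genes of each list, and the 2 genes most like each precursor; not every gene so named has its results reported here, and Adcyap1, the NPY receptors, Scg2, Cadps2, Kcne2, Kl, Tbr1, Cx3cr1, Fibcd1 and the 5 tested other peptides were singled out after their values were seen. The members and lists were chosen with earlier results of these data known.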

Additional observations from a re-analysis of the deposited data

Results flagged for a closer look

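Cort stood out in 1 animal. APP/PS1 female 2 had 9.66 normalized CPM, while the other 3 APP/PS1 females lay between 3.95 and 4.49. The gap from this animal to the next was 0.906 of the range of its group. Each of the 10 precursors was examined in both groups of 4 in this way, 20 sets in all, and 1 was marked. For independent, normally distributed values chance alone would mark about 1 in 20 of such sets. These sets share animals, and some of the genes vary together, so the rate for these data is not known.

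Npy differed in opposite directions between the genotypes in the 2 sexes. Its log2 fold change in females minus that in males was -0.51, with every APP/PS1 female below both WT females and every APP/PS1 male above both WT males. The interaction was tested across all genes and was not called (adjusted p = 0.998 by edgeR's quasi-likelihood test). The WT groups hold 2 animals each, and 51 of the tested genes showed such opposite separations.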

How the results depend on the processing

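In the comparisons of APP/PS1 with WT mice, for both sexes averaged, females, males and the interaction, and between the sexes in APP/PS1 mice, 0 of 10 precursors were called under each of the 25 alternatives. Between WT females and males the count was 1, Npy, and it was 0 with a replicate block, without the 3 libraries with Ttr above 1000 CPM, and in the lowest of the fits that left out 1 animal each (range 0 to 1). Over all genes, 258 were called in the averaged comparison, between 172 and 386 under the alternatives that kept all animals or dropped the 3 libraries, and between 139 and 349 with 1 animal left out. In females, with 105 called, the count ranged from 12 without WT female 1 to 295 with DESeq2, and in males, with 22 called, from 4 without WT male 2 to 119 with DESeq2 and its own size factors. With the replicate block 216 genes were called in the averaged comparison. Same-numbered animals were not treated as paired in the main fit. Of 14 same-numbered pairs between groups, 4 had correlated deviations from group means above 0.1, and r ran from -0.633 to 0.685. The highest r was that of WT female 2 and APP/PS1 male 2, both choroid plexus-rich. Deviations of the 2 WT animals of a sex mirror each other, so these values cannot settle whether same-numbered animals were processed together. Of 240 averaged log2 fold changes of the precursors under alternatives, 223 moved by less than 1 standard error and 23 changed sign, none of them called; in females 21 and in males 9 of 240 changed sign. Each comparison within a sex rests on 2 WT animals.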

Other observations

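Among peptide genes below the filter, Trh, the precursor of thyrotropin-releasing hormone, was at 6.98 normalized CPM in APP/PS1 female 3 and between 0.204 and 1.16 in the other 11 animals. Cartpt, a peptide of mossy cells and other neurons, was at 2.74 and 2.03 normalized CPM in WT males 1 and 2, above the 0.971 to 1.6 of the 4 APP/PS1 males, and at 0.953 and 1.25 in WT females 1 and 2, where 3 of the 4 APP/PS1 females were higher (1.17 to 1.68 in all 4). Both were singled out after their values were seen, and neither was tested in the main fit. The male genotypes did not overlap for 10.8% of the genes tested there.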
